A study of Homo sapiens with 6 samples.

Results

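The mitotic kinases described here are the 10 genes AURKA, AURKB, PLK1, PLK4, TTK, BUB1, BUB1B, NEK2, MELK and PBK, taken by gene name from the 58735 genes of the deposited expression table. Each name matched a single row. RNA-seq was performed to ask which genes change when AKR1B10, an aldo-keto reductase, is silenced in PC9-BrM3, a subline of the lung adenocarcinoma line PC9 that forms metastases in the brain. The 3 BrM3-shAKR1B10 libraries (genotype AKR1B10 knockdown) carried lentiviral AKR1B10-targeted shRNA vector 1, and the 3 BrM3-shNC libraries (genotype WT in the labels) carried a lentiviral negative control shRNA. The groups are called silenced and control below. All 6 libraries came from PC9-BrM3 cells in routine culture, so the data describe 1 cell line and 1 of the shRNA vectors. No source used here says whether the 3 libraries of a group were separate cultures, and the p-values below measure only the spread between these libraries, which may be technical.

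Mitotic kinases are enzymes that drive and police the division of the duplicated chromosomes. Aurora and Polo-like kinases build the spindle and its poles, NEK2 separates the centrosomes, PLK4 starts the copying of centrioles, and TTK, BUB1 and the BUB1B product hold the cell in mitosis until every chromosome is attached. Most of their genes are transcribed late in the cell cycle, in G2 phase and mitosis, under the DREAM and MuvB complexes, B-MYB and FOXM1. Several of them, Aurora A and PLK1 among them, are drug targets in cancer.

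AKR1B10 itself was at 108.5 ± 1.52 FPKM in the silenced cells and 782 ± 14.6 FPKM in the control cells (mean ± SD, n = 3, as in all values below), a log2 fold change of -2.85. FPKM scales fragments by gene length and a library size, so levels of different genes are compared per length. The size used was not the plain count of reads on genes. That count lay above the size in each control library (18709028 against 18350584 in the first). In each silenced library the count lay below the size (17253067 against 17669819 in the first). Depth was even, at 16964504 to 18709028 reads on genes per library. Markers of other cell types were low, with a summed level of 1.1 to 1.53 FPKM for 6 immune genes, 1.2 to 2.08 FPKM for 7 fibroblast genes, of which 4 were at 0 in all libraries, 1.52 to 2.37 FPKM for 4 endothelial genes and 2.64 to 3.68 FPKM for 6 glial and neuronal genes. Of the 8 epithelial and lung genes, which summed to between 2986 and 3348 FPKM, NKX2-1 and SFTPB, both markers of lung epithelium, had means under 1 FPKM.

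All 10 mitotic kinases fell in the silenced cells. Their summed level was 111.9, 116.7 and 113.5 FPKM in the 3 silenced libraries and 251.9, 254.9 and 249.6 FPKM in the 3 control libraries, leaving 45.2% of the control level. The log2 fold changes lay between -1.33 for AURKA and -0.89 for MELK, with a median of -1.10, and 8 of the 10 were below -1. A call required an absolute log2 fold change above 0.5 and an adjusted p under 0.05 (limma on log2(FPKM + 0.1), adjusted by Benjamini-Hochberg over all genes tested). Of the 13150 genes tested, 7.45% were called lower and 5.83% higher, against 10 and 0 of the 10 kinases. The kinases were chosen with earlier results of these data known, so this comparison is a description. The median log2 fold change of all genes tested was -0.01, and 0.025 with TPM scaling, so it depends on how the libraries were scaled. In each of the 10 kinases every silenced value lay below every control value, a pattern that 29.2% of all genes tested also had. In the order of all 13150 log2 fold changes, lowest first, the kinases ranked between 78 and 326.

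**Figure D1:**
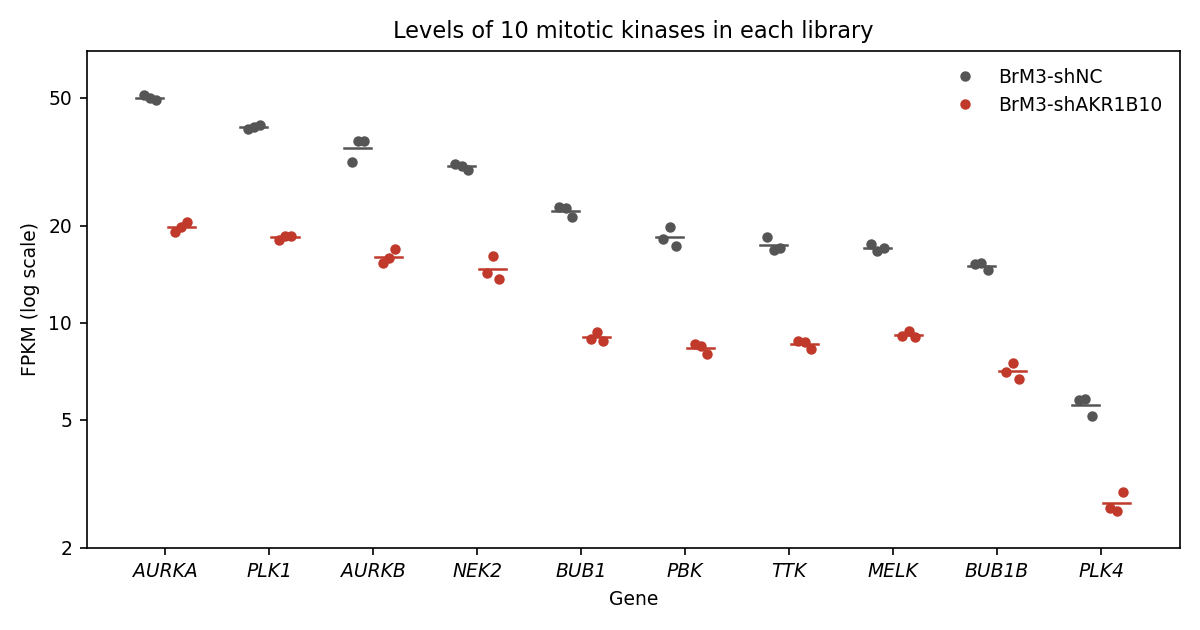
FPKM (log axis) of the 10 mitotic kinases, 1 point per library and a line at the mean of the 3 libraries of each group, ordered by the level in BrM3-shNC. In every kinase the 3 BrM3-shAKR1B10 points sit below the 3 BrM3-shNC points, and the levels run from 50.04 FPKM for AURKA to 5.55 FPKM for PLK4 in the controls.

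The promoters of these genes are known for the sequence elements that restrict transcription to late cell cycle, and the letters were read from a table of RefSeq promoters (GRCh38.p14), 250 bases before to 50 bases after a transcript start. For 7 of the 10 kinases a promoter in the table was used, and those of AURKA, TTK and PBK were not analysed here. The table lists 3 starts for PLK4 and 2 for AURKB, and the start nearest to the 5′ end of the gene in the deposited table was taken, so that the positions and matches of these 2 genes hold for that start. The cell cycle genes homology region (CHR, searched as TTTGAA), its variant TTCGAA and the CCAAT box (CCAAT) were searched on both strands, and no match overlapped another. Positions are counted from 1 at the transcript start, with -1 the base before it. A CHR or its variant was present in the promoters of PLK1, PLK4, BUB1 and BUB1B, 4 of 7, against 16.4% of all 35116 promoters in the table (15.2% with TTTGAA and 1.45% with TTCGAA). Boxes of the CCAAT kind were present in those of PLK1, AURKB, BUB1 and NEK2, against 34.6% of all promoters. The MELK promoter held none of the 3 motifs. The stretches that carry most of these matches are given from 90 bases before to 10 bases after the transcript start, on the strand of the gene, to show how the elements lie to the start, with each match in capitals.
PLK1, plus strand, chr16:23678799-23678898: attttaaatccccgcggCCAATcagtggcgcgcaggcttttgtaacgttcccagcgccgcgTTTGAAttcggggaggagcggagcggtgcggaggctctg
BUB1, minus strand, chr2:110678054-110678153: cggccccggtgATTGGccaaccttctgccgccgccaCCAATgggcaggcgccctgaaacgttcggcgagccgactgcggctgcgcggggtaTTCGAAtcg
BUB1B, plus strand, chr15:40160979-40161078: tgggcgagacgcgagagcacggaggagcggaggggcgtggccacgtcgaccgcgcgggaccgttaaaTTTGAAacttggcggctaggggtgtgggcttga
NEK2, minus strand, chr1:211675612-211675711: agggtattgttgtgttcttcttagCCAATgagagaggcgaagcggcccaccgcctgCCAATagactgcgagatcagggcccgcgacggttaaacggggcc
In PLK1 the CHR began at -29 and the CCAAT box at -73. In BUB1B the CHR began at -23 with no CCAAT box. In BUB1 the variant lay just past the start, from 2 to 7, with CCAAT boxes at -79 (on the opposite strand, written ATTGG here) and -54. NEK2 held CCAAT boxes at -66 and -34 and no CHR, and in AURKB the only match, a CCAAT box on the opposite strand, began at -129. In PLK4 the CHR lay past the start on the opposite strand, from 39 to 44, in the stretch chr4:127880918-127880942 (plus strand), gcggcgggagattTTCAAAatggga. A match describes these letters and not binding of a factor, and a window without a match says nothing of the rest of the gene.

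The Aurora kinases were among the highest of the 10 transcripts by level, AURKA first and AURKB behind PLK1. Gene positions are those of the deposited table, which match GENCODE 29 (GRCh38). AURKA (ENSG00000087586, minus strand, chr20:56369389-56392337), whose product matures the centrosomes and assembles the spindle poles, was at 19.2, 19.9 and 20.6 FPKM in the silenced libraries and at 51.1, 49.8 and 49.2 FPKM in the control libraries. The groups stood far apart, with the highest silenced value well under the lowest control value. The log2 fold change was -1.33 (standard error (SE) 0.0372, limma adjusted p = 8.72e-06), leaving 39.7% of the control level, the lowest share among the 10. AURKB (ENSG00000178999, minus strand, chr17:8204733-8210600), the catalytic subunit of the chromosomal passenger complex that corrects faulty attachments and guides cytokinesis, was at 15.3, 15.9 and 17.0 FPKM in the silenced and at 31.5, 36.6 and 36.7 FPKM in the control libraries. The first control library was the low one for AURKB, and still lay above all 3 silenced libraries. Its log2 fold change was -1.11 (SE 0.0708, limma adjusted p = 7.34e-05), leaving 46.0% of the control level.

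The ratio of AURKA to AURKB within a library was 1.62, 1.36 and 1.34 in BrM3-shNC and 1.25, 1.25 and 1.21 in BrM3-shAKR1B10, and every silenced ratio lay below every control ratio. The difference of -0.21 on the log2 scale (SE 0.0885) had an exact two-sided permutation p of 0.1, the smallest that 3 against 3 libraries allow, and 0.4 after Benjamini-Hochberg adjustment over the 12 pairs of kinases compared. Without the first control library, the one with the low AURKB value, the difference was nearer to 0, at -0.13.

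The Polo-like kinases PLK1 and PLK4 lay near opposite ends of the level scale, and both fell. PLK1 (ENSG00000166851, plus strand, chr16:23677656-23690367), which triggers mitotic entry, centrosome maturation and cytokinesis, was at 18.1, 18.6 and 18.6 FPKM in the silenced and at 39.9, 40.7 and 41.2 FPKM in the control libraries. Its libraries were the most alike of the 10 kinases in both groups, with coefficients of variation of 1.56% (silenced) and 1.70% (control), on 1522 to 3583 reads per library. The log2 fold change was -1.14 (SE 0.0309, limma adjusted p = 8.72e-06). PLK4 (ENSG00000142731, plus strand, chr4:127880861-127899195), the kinase that starts centriole duplication, was the lowest of the 10, at 2.66, 2.60 and 2.98 FPKM in the silenced and at 5.74, 5.78 and 5.15 FPKM in the control libraries. The groups did not overlap, though PLK4 rested on only 210 to 472 reads per library and carried the largest standard error. Its log2 fold change was -0.99 (SE 0.0768, limma adjusted p = 0.000158), leaving 49.5% of the control level. The ratio of PLK1 to PLK4 was 7.33 ± 0.590 in BrM3-shNC and 6.73 ± 0.477 in BrM3-shAKR1B10, with overlapping values (exact two-sided permutation p = 0.3, 0.9 after adjustment over the 12 pairs).

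The 3 kinases of the spindle assembly checkpoint fell to between 40.4% and 49.1% of the control level. TTK (ENSG00000112742, plus strand, chr6:80003887-80042527), the kinase known as MPS1 that starts checkpoint signaling at unattached kinetochores, was at 8.80, 8.72 and 8.26 FPKM in the silenced and at 18.5, 16.9 and 17.1 FPKM in the control libraries. BUB1 (ENSG00000169679, minus strand, chr2:110637698-110678114), which recruits further checkpoint proteins and marks centromeric histone H2A, was, in the same order of groups, at 8.88, 9.39 and 8.76 FPKM and at 22.8, 22.7 and 21.4 FPKM. BUB1B (ENSG00000156970, plus strand, chr15:40161023-40221136), which encodes BUBR1, a part of the complex that inhibits the anaphase-promoting complex, was at 7.02, 7.52 and 6.68 FPKM and at 15.2, 15.3 and 14.6 FPKM. In all 3 genes the values within a group lay close together and the groups stood apart. The log2 fold changes were -1.02 for TTK (SE 0.0498, limma adjusted p = 2.84e-05), -1.30 for BUB1 (SE 0.0451, limma adjusted p = 1.12e-05) and -1.08 for BUB1B (SE 0.0526, limma adjusted p = 2.84e-05).

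For the paralogs, the ratio of BUB1 to BUB1B was 1.5, 1.48 and 1.46 in BrM3-shNC and 1.26, 1.25 and 1.31 in BrM3-shAKR1B10. The ratios did not overlap and were tight within each group, and the difference on the log2 scale was -0.22 (SE 0.0238, exact two-sided permutation p = 0.1, 0.4 after adjustment over the 12 pairs). Leaving out any 1 library gave differences between -0.24 and -0.21. BUB1 and AURKA, the pair with the largest decreases, differed by -0.03 with overlapping ratios (SE 0.0503), a value that moved to -0.00067 without the second and to -0.0763 without the third silenced library.

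NEK2, MELK and PBK act beside these core kinases. NEK2 (ENSG00000117650, minus strand, chr1:211658657-211675630), which dissolves the linker between the centrosomes, was at 14.3, 16.1 and 13.7 FPKM in the silenced and at 31.2, 30.6 and 29.9 FPKM in the control libraries. Its silenced libraries were the most spread of the 10 kinases, with a coefficient of variation of 8.63% against 3.51% from counting alone, and the groups remained apart. MELK (ENSG00000165304, plus strand, chr9:36572862-36677683), an AMPK-related kinase of proliferating cells, was, in the same order of groups, at 9.11, 9.44 and 9.01 FPKM and at 17.6, 16.7 and 17.0 FPKM. PBK (ENSG00000168078, minus strand, chr8:27809620-27838095), a kinase activated in mitosis by CDK1 and also known as TOPK, was at 8.57, 8.49 and 8.02 FPKM and at 18.2, 19.9 and 17.3 FPKM. The groups did not overlap in either. The log2 fold changes were -1.05 for NEK2 (SE 0.0629, limma adjusted p = 5.87e-05), -0.89 for MELK (SE 0.0388, limma adjusted p = 2.10e-05) and -1.13 for PBK (SE 0.0592, limma adjusted p = 3.44e-05). MELK kept the largest share of its control level, 53.7%.

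Reads on PBK share a limit with its neighbor. ESCO2, the acetyltransferase that establishes cohesion in S phase, overlaps PBK by 3021 bases on the opposite strand and held 178 to 346 reads per library, up to 60.7% of those on PBK. ESCO2 fell as well, with a log2 fold change of -0.70 (limma adjusted p = 0.0025). Whether reads were counted by strand is not given in the sources used here, so reads from the shared stretch cannot be told apart. The other overlapping genes and processed pseudogenes of the 10 kinases held at most 6 reads in any library, or at most 0.476% of the reads on the kinase.

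**Figure D2:**
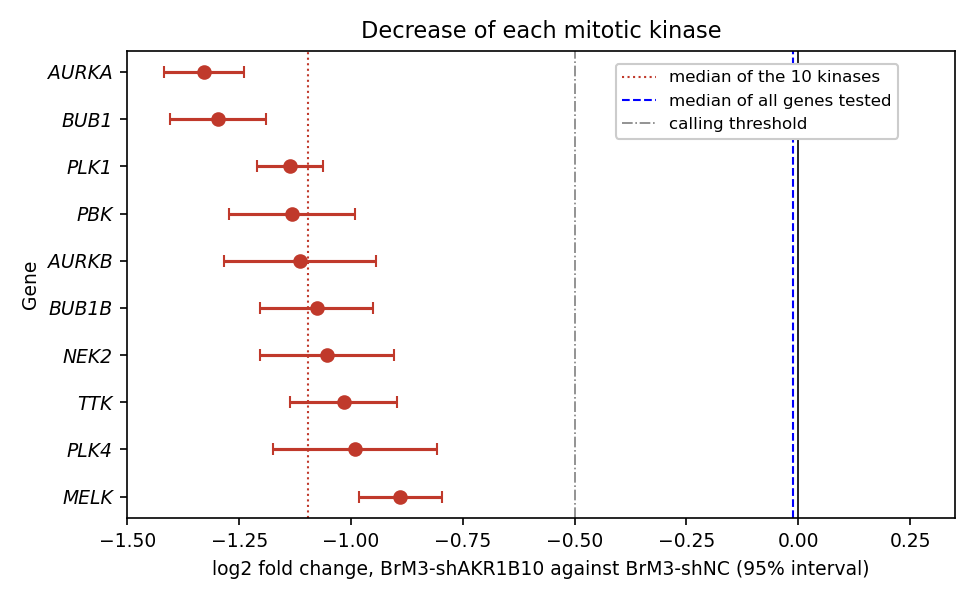
Log2 fold change of each kinase in BrM3-shAKR1B10 against BrM3-shNC (limma on log2(FPKM + 0.1), points, with 95% intervals as bars), ordered by size, with lines at the median of the 10 kinases (-1.10), the median of all 13150 genes tested (-0.01) and the threshold for a call. All 10 intervals lie left of the threshold, and those of AURKA and MELK lie apart from each other.

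The order of the levels changed in the middle and not at the ends. In BrM3-shNC the order was AURKA, PLK1, AURKB, NEK2, BUB1, PBK, TTK, MELK, BUB1B and PLK4, and each neighbor was separated from the next by non-overlapping libraries except PBK from TTK and TTK from MELK. In BrM3-shAKR1B10 the order was AURKA, PLK1, AURKB, NEK2, MELK, BUB1, TTK, PBK, BUB1B and PLK4, and the libraries overlapped between AURKB and NEK2 and along the run from MELK to PBK. The highest level was 9.01 times the lowest in BrM3-shNC and 7.23 times in BrM3-shAKR1B10. In absolute terms AURKA lost the most, 30.2 FPKM between the group means, and PLK4 the least, 2.81 FPKM.

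As a share of the summed level of the 10, AURKA went from 19.8 ± 0.385% in BrM3-shNC to 17.4 ± 0.616% in BrM3-shAKR1B10, BUB1 from 8.84 ± 0.261% to 7.90 ± 0.168%, and MELK from 6.78 ± 0.228% to 8.05 ± 0.107%. The libraries of the groups did not overlap in these 3 shares, which were picked for that and have no background over other genes here. The ratio of AURKA to MELK, the extremes of the decreases, was 2.90, 2.99 and 2.89 in BrM3-shNC and 2.10, 2.10 and 2.29 in BrM3-shAKR1B10, given as a description because the pair was chosen for its difference. Of the 12 pairs compared (the 9 neighbors in the order of the decreases and the paralogs), only AURKA with AURKB, BUB1 with BUB1B and BUB1 with PLK1 (difference -0.16, SE 0.0515) had ratios that did not overlap between the groups, and none passed after adjustment. With a pseudocount of 1, BUB1 with PLK1 overlapped (-0.12, exact two-sided permutation p = 0.2) and PLK1 with PLK4 did not (-0.29, against -0.15 with 0.1). Leaving out 1 library gave -0.191 to -0.0806 for PLK1 with PLK4. Neighbors were set by sorting the same fold changes, which fixes the sign of their differences, so these are a description. The other neighbors differed by between -0.10 (PLK4 against MELK, SE 0.0952) and -0.0041 (PLK1 against PBK, SE 0.0740). With 1 library left out, PLK4 against MELK ranged from -0.173 without the third to -0.0432 without the second silenced library, and NEK2 against TTK from -0.0948 without the second to -0.0024 without the first. Kinases with higher control levels tended to lower fold changes (Spearman's rho -0.75 and Pearson's r -0.57 across the 10 genes, and rho -0.65 without AURKA), a description only, since the control level enters both measures and the genes are not independent.

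The spread between replicates varied between the kinases. The median coefficient of variation over the 10 kinases was 3.66% in BrM3-shAKR1B10, where counting alone gives 3.86%, and 3.20% in BrM3-shNC, where counting gives 2.66%. It lay above the counting value in 6 kinases in BrM3-shAKR1B10 and in 5 in BrM3-shNC, the most in the controls for AURKB, with 8.46% against 2.68%. Over all genes, pairs of replicates differed by more than counting, with a chi-square per gene of 2.35 to 4.97 and the highest values in the pairs with the first control library. Counting error covers reads only, which without molecular identifiers are not independent molecules.

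Partners of the Aurora kinases were lower for 6 of 9 genes and higher for none, with a median log2 fold change of -0.85. BIRC5 (-1.13), INCENP (-1.06) and CDCA8 (-0.85), the other subunits of the chromosomal passenger complex, fell with AURKB, as did the Aurora A activators TPX2 (-1.08), which targets the kinase to the spindle, and BORA (-1.10), its cofactor for activating PLK1 (limma adjusted p at most 0.000447 for the 5 genes). CEP192, the scaffold that gathers Aurora A at centrosomes, was at 4.16 ± 0.309 FPKM in the silenced and 4.50 ± 0.0766 FPKM in the control libraries, and did not pass the test (log2 fold change -0.11, limma adjusted p = 0.207, and -0.0578 without the first silenced library). The highest values of this list were those of NEDD9 (0.45) and AJUBA (0.21), adaptors that activate Aurora A. NEDD9 was higher in every silenced than in every control library (limma adjusted p = 0.00149) but under the fold threshold, and AJUBA did not pass (limma adjusted p = 0.0542).

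The ratio of AURKA to TPX2 was lower in each silenced than in each control library. It was 0.745 ± 0.0145 in BrM3-shNC and 0.626 ± 0.0191 in BrM3-shAKR1B10, without overlap (difference -0.25 on the log2 scale, SE 0.0302). The ratios of AURKB to INCENP overlapped between the groups, at 1.34 ± 0.0774 and 1.29 ± 0.0303, and those of AURKB to BIRC5 were 0.840 in BrM3-shNC and 0.846 in BrM3-shAKR1B10 (means). The mean ratio of AURKB to CDCA8 was 1.23 in BrM3-shNC and 1.02 in BrM3-shAKR1B10, and that of AURKA to CEP192 was 11.1 and 4.79, both without overlap. The ratio of AURKA to BORA overlapped between the groups, at 6.54 ± 0.0697 in BrM3-shNC and 5.70 ± 1.09 in BrM3-shAKR1B10 (difference -0.23, SE 0.150). These and the ratios below belong to 16 pairs of a kinase with a partner, chosen after their values were seen. Of the 16, a further pair with PLK4 (difference -0.49, SE 0.195) and a pair with BUB1 (-0.24, SE 0.0551) are not named, both without overlap. No ratio had an exact two-sided permutation p under 0.1, the smallest possible, or under 0.2 after Benjamini-Hochberg adjustment over the 16.

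Partners and substrates of PLK1 were lower for 8 of the 11 tested of 12 genes, with a median log2 fold change of -0.84. KIF20A (-1.36), a kinesin of the central spindle that docks PLK1, and CDC25C (-1.22), the phosphatase that activates CDK1, had the lowest values of the list, and BORA, FOXM1 (-0.84), a transcription factor of mitotic genes, and PKMYT1 (-0.64), an inhibitory kinase of CDK1, also fell. WEE1, the other inhibitory kinase of CDK1, was at 4.04 ± 0.387 FPKM in the silenced and 4.59 ± 0.227 FPKM in the control libraries and did not pass (-0.18, limma adjusted p = 0.108), nor did CENPU (-0.30), which docks PLK1 at the kinetochore and stayed under the fold threshold. The ratio of PLK1 to BORA was 5.31 in BrM3-shNC and 5.27 in BrM3-shAKR1B10 (difference -0.04, exact two-sided permutation p = 0.9).

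Partners of PLK4 in centriole duplication were lower for 3 of 9 genes, with a median log2 fold change of -0.49. SASS6 (-0.84), the cartwheel protein, CENPJ (-0.71), which elongates the centriole wall, and STIL (-0.59), the activator and substrate of PLK4, fell. CEP192 and CCP110 (-0.22), a cap of the distal centriole end, had the highest values and did not pass. The ratio of PLK4 to STIL was 0.644 in BrM3-shNC and 0.485 in BrM3-shAKR1B10 without overlap (difference -0.40), and that of PLK4 to SASS6 was 1.24 and 1.12 with overlap (-0.15, exact two-sided permutation p = 0.3).

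Spindle checkpoint proteins other than the kinases were lower for 12 of 16 genes, with a median log2 fold change of -0.92. NUF2 (-1.25) and NDC80 (-1.15), subunits of the complex that binds microtubules at the kinetochore, CDC20 (-1.18), the activator of the anaphase-promoting complex, and MAD2L1 (-1.15), its checkpoint inhibitor, fell (limma adjusted p at most 0.000113). CDC20 had the highest level of the 4, at 49.2 ± 2.48 FPKM in the silenced and 111.4 ± 7.06 FPKM in the control libraries. BUB3, the binding partner of BUB1 and BUBR1, was at 15.5 ± 0.476 and 19.4 ± 0.366 FPKM, with a log2 fold change of -0.32 (limma adjusted p = 0.000839) that lay under the threshold of 0.5, and MAD2L1BP, which silences the checkpoint, was at -0.06. The ratio of BUB1B to BUB3 was 0.775 ± 0.0222 in BrM3-shNC and 0.455 ± 0.0208 in BrM3-shAKR1B10, without overlap (difference -0.76). Its ratios to MAD2L1 (1.35 and 1.43) and CDC20 (0.135 and 0.144) overlapped between the groups, as did those of TTK to NDC80 (0.953 and 1.05).

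Of 6 NEK2 substrates, NDC80 and CNTROB (-0.70), a centriole protein, fell. CEP250, the centrosome linker protein that NEK2 phosphorylates, did not pass (-0.33, limma adjusted p = 0.0049, under the fold threshold), and neither did LRRC45 (-0.25) or CEP68 (-0.24), other linker proteins. CEP68 was at -0.11 without the first control library, where it was at 1.88 FPKM against 1.41 and 1.39 FPKM in the other control libraries. The ratio of NEK2 to CEP250 went from 8.82 ± 0.164 in BrM3-shNC to 5.39 ± 0.365 in BrM3-shAKR1B10 without overlap (difference -0.72).

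**Figure D3:**
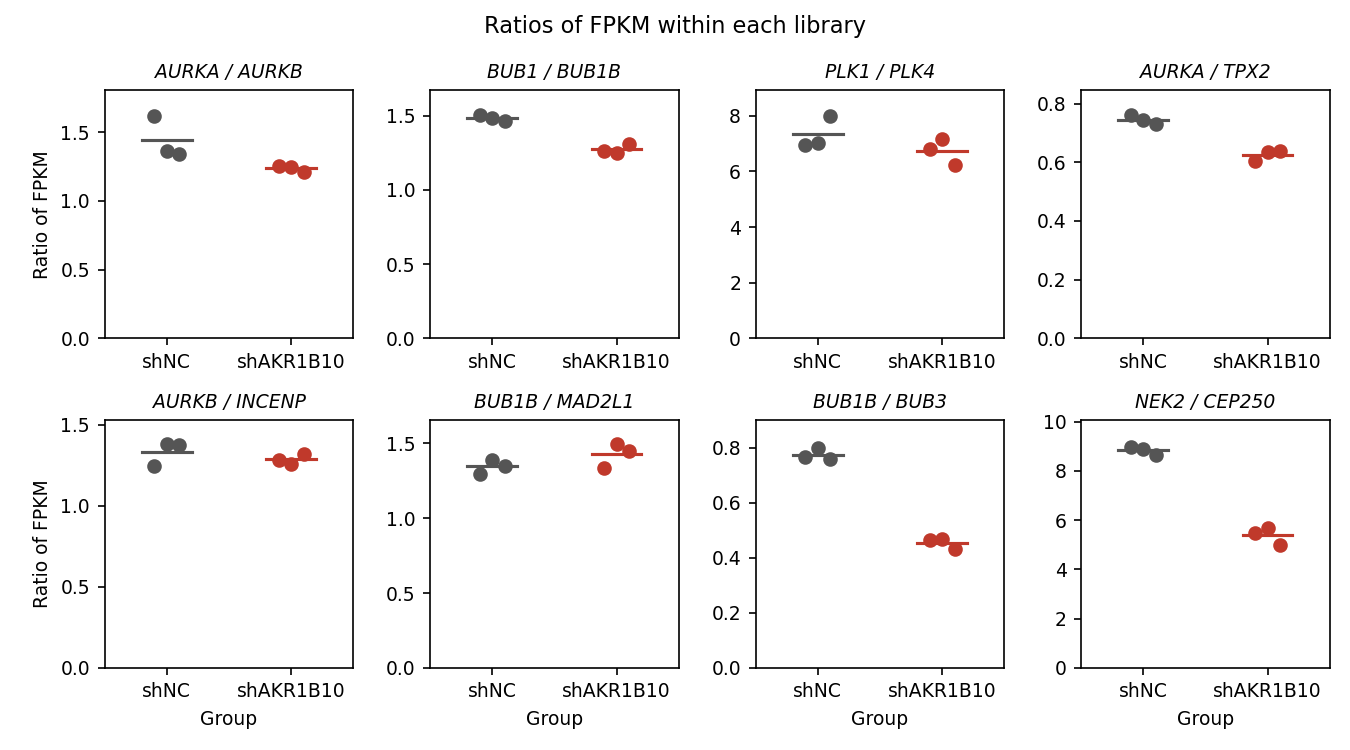
Ratio of FPKM within each library (points) with the group mean (line), for the paralog pairs and for kinases with 5 of their partners, each panel on its own linear axis from 0. AURKA to AURKB, AURKA to TPX2, BUB1 to BUB1B, BUB1B to BUB3 and NEK2 to CEP250 do not overlap between the groups, whereas PLK1 to PLK4, AURKB to INCENP and BUB1B to MAD2L1 do.

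Most of the other kinases that act in mitosis were not called. Of 22 tested, 5 were lower (22.7%, against 7.45% of all genes tested) and none higher, with a median log2 fold change of -0.20. CDK1, the master kinase of mitosis, was at 34.2 ± 2.08 FPKM in the silenced and 72.0 ± 3.01 FPKM in the control libraries and fell by 1.07 on the log2 scale (limma adjusted p = 3.02e-05). CIT, a kinase of cytokinesis (-1.03), and PKMYT1 fell too, as did HASPIN, the histone H3 kinase that recruits the passenger complex (-0.63), and VRK1 (-0.50 with limma adjusted p = 0.0427), both named after their values were seen. VRK1 lay at the edge of both thresholds and lost its call in 11 of 16 refits under other settings, among them the replicate block and every left-out library but the third control. The highest values of this list were those of NEK8 (0.49), which passed in 4 of 16 refits, and PLK3 (0.25), which passed in none. Kinases of G1, S phase and the DNA damage checkpoints had 1 of 12 lower (8.33%, near the 7.45% of all genes tested), CHEK2 (-0.72), with a median of -0.22. CDC7 (-0.44) and CHEK1 (-0.40) lay under the fold threshold, and ATM (0.31, limma adjusted p = 0.0224, under the fold threshold) and ATR (0.10) had the highest values. ATR overlapped between the groups (limma adjusted p = 0.238) and ranged from 0.0473 to 0.142 with 1 library left out.

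A list of phosphatases and their inhibitors also holds CDC25 phosphatases that activate CDK1 and so act with the kinases. Of 21 tested, 5 were lower (23.8%, against 7.45% of all genes tested), with a median log2 fold change of -0.18. CDC25C and CDC25B (-1.13) fell the most, followed by PPP2R2D (-0.63), a regulatory subunit of protein phosphatase PP2A. PPP2R5B (0.20, limma adjusted p = 0.0322) and PPP2R2A (0.13, limma adjusted p = 0.0546), also regulatory subunits of PP2A, had the highest values. Both were under the fold threshold, and PPP2R2A missed the threshold for adjusted p as well. Transcription factors and MuvB subunits of mitotic genes had 6 of 22 tested lower (27.3%) and 1 higher, with a median of -0.20. MYBL2, which encodes B-MYB, fell from 102.9 ± 2.64 to 43.4 ± 1.64 FPKM (-1.24, limma adjusted p = 9.91e-06), and FOXM1 fell from 19.2 ± 0.885 to 10.7 ± 0.540 FPKM. LIN9 (-0.79), a MuvB subunit, also fell. The gene that rose was CDKN1A, the CDK inhibitor p21, from 8.42 ± 0.390 to 13.6 ± 0.404 FPKM (0.68, limma adjusted p = 0.000104). E2F3 was at 0.25 (limma adjusted p = 0.0041), under the fold threshold.

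**Figure D4:**
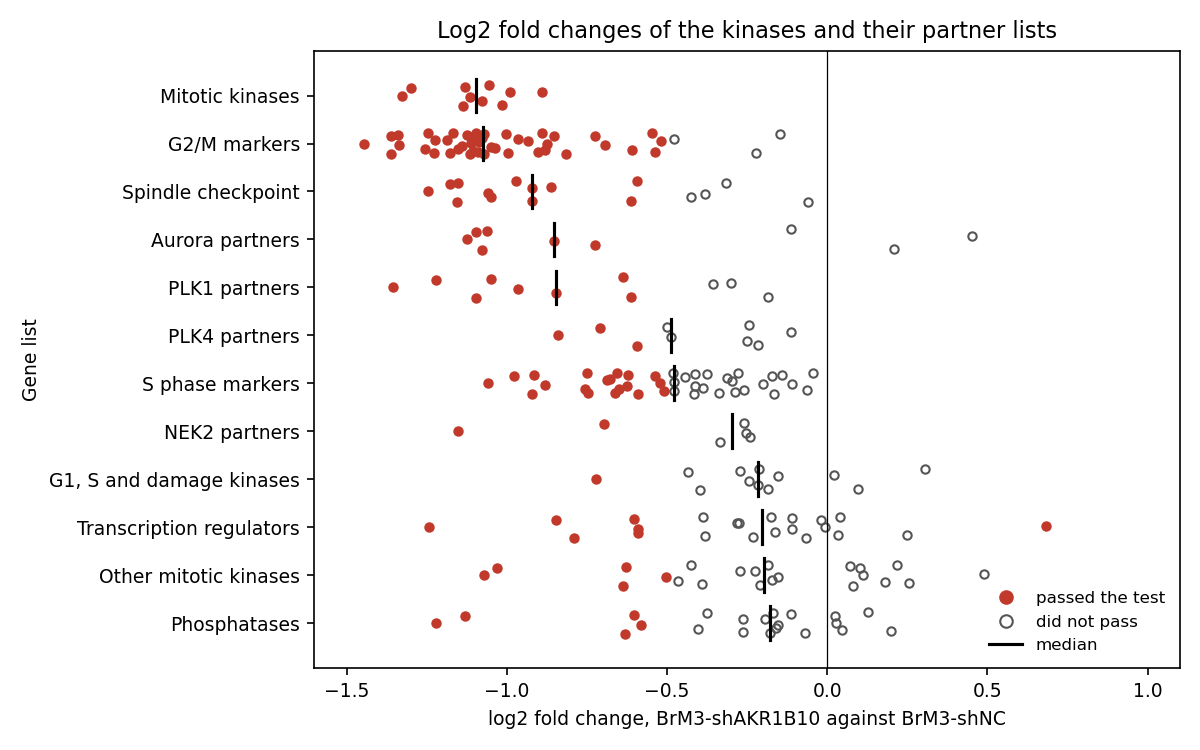
Log2 fold change of every tested gene (1 point each, filled where called) in the 10 kinases and in each list of partners, kinases, regulators and phase markers, with a line at each median, from limma on log2(FPKM + 0.1). The kinases (median -1.10) lie with the G2/M markers (-1.08), while the medians of other mitotic kinases (-0.20) and phosphatases (-0.18) lie nearer to 0. Of these lists 22.7% and 23.8% were called lower, against 7.45% of all genes tested.

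Markers of cell cycle phase moved with the kinases. Of 46 G2/M genes other than the 10 kinases, 43 were lower, with a median log2 fold change of -1.08, and their summed level was 1145 to 1158 FPKM in the silenced and 2128 to 2143 FPKM in the control libraries, or 54.0% of the control level. Of the 41 S phase genes tested, 19 were lower, with a median of -0.48, and the summed level of the list was 580 to 590 FPKM against 804 to 815 FPKM. No gene of either list was higher. In bulk RNA, fewer cells in G2 phase or mitosis and less kinase RNA per such cell cannot be told apart. Among the other cell type markers, COL1A1 was lower (-0.67) and CDH5 higher (0.65), both at under 2 FPKM, and no epithelial marker was called. The part of these markers in the decrease of the kinases was not tested.

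The genes whose profile over the 6 libraries was most like the mean profile of the 10 kinases were PEG10, ASPM, KIF2C, DBF4B and CKS2, with a root mean square distance of 0.0112 to 0.0327 on the log2 scale. PEG10, a gene derived from a retrotransposon, was the nearest, at 9.37 ± 0.197 FPKM in the silenced and 20.4 ± 0.50 FPKM in the control libraries (-1.11). ASPM, a spindle pole protein, was at -1.12, KIF2C, a kinesin that AURKB regulates, at -1.11, and DBF4B, an activator of CDC7, and CKS2, a CDK subunit, at -1.09. Among the kinases, PLK1 lay nearest to the mean profile (0.0331) and AURKA farthest (0.117).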

How the data were processed

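RNA-seq libraries were grouped by the sample labels. Per the labels and methods, the authors aligned reads with HISAT2 2.0.5, counted them with featureCounts 1.5.0-p3 and deposited FPKM for 58735 genes, with no replicates pooled, and used DESeq2 for their own tests. The build is not named there, and all gene identifiers and positions match GENCODE 29 (GRCh38). FPKM times length gave whole reads for all values (tolerance 0.1), and 3 reads on 1 kilobase correspond to 0.163 to 0.177 FPKM.

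Genes of mean FPKM 1 or more were tested with limma 3.58.1 (R 4.3.3, lmFit, eBayes with trend) on log2(FPKM + 0.1), a scale that understates changes of low genes, with Benjamini-Hochberg adjustment. Ratios were compared by exact permutation in scipy 1.17.1 (Python 3.11.15, numpy 2.4.6, pandas 2.3.3). The kinases and lists were chosen with earlier results of these data known. Of each partner list the 3 lowest and 2 highest genes are named, with TPX2, INCENP, BIRC5, CDCA8, BORA, CDC20, MAD2L1, BUB3, STIL, SASS6, CDK1, WEE1, PKMYT1, FOXM1, MYBL2 and CHEK1, and the 5 genes nearest in profile. HASPIN, VRK1, ESCO2, COL1A1 and CDH5 were named after their values were seen. Replicate numbers did not pair the libraries (correlations of deviations -0.0155 to 0.00388). The alternatives were other pseudocounts, filters and scalings, eBayes without a trend, voom, a replicate block, protein-coding genes only, a higher fold threshold, and each library left out.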

Additional observations from a re-analysis of the deposited data

How the results depend on the processing

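The 10 kinases were called lower with pseudocounts of 0.01 and 1, no filter, scaling by quantiles, median of ratios or TPM, no variance trend, voom on recovered reads, protein-coding genes only and each library left out (10 each time). Median of ratios scaling left the values almost unchanged, with a kinase median of -1.09543 against -1.09547, and so was no separate check. A fold threshold of 1 left 8, without MELK and PLK4, and a mean FPKM of at least 5 left PLK4 untested and called the other 9. Over all alternatives their log2 fold changes lay between -1.35 and -0.81, and AURKA was the lowest in all 17 refits and MELK the highest in 16, with PLK4 the highest with a pseudocount of 1. With the replicate number as a block, 10 kinases, 42 partner genes, 967 lower and 719 higher genes were called, and the highest adjusted p of a kinase was 0.00331 (limma), so the block ended no call of a kinase. Of 56 other named genes, 36 were called, and 32 of these in every refit. The exceptions were VRK1, and CDH5, COL1A1 and ESCO2 with a pseudocount of 1. Of those not called, NEDD9 passed in 1 refit and NEK8 in 4, and MAD2L1BP ranged from -0.11 to 0.014 with 1 library left out, turning positive without the third control library. A fold threshold of 1 left 17 partner genes (43 at a threshold of 0.5), 205 lower and 168 higher genes. A pseudocount of 1 gave 497 higher genes and a median of -1.03 for the kinases, and a mean FPKM of at least 5 gave 532 lower and 290 higher genes. TPM scaling gave 873 lower and 902 higher genes. With each library left out, 947 to 971 genes were lower, 42 to 44 of them partner genes, and 656 to 759 were higher. Some small differences between neighboring kinases changed sign. PLK1 against PBK was 0.00051 with a pseudocount of 0.01, and with a pseudocount of 1 PBK against AURKB was 0.0185, BUB1B against NEK2 0.0207 and PLK4 against MELK 0.0228. Leaving out a library gave -0.0559 to 0.0534 for PLK1 against PBK, -0.10 to 0.0514 for PBK against AURKB, -0.118 to 0.021 for AURKB against BUB1B, -0.0363 to 5.3e-05 for BUB1B against NEK2 and -0.0793 to 0.0604 for TTK against PLK4. The cause of these changes was not tested. With 3 libraries a group, no ratio could pass a permutation test.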
